A study of Mus musculus with 18 samples.

Results

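The step from 10 to 50 µM lithocholic acid (LCA) in mouse CD8+ T cells that carried a scrambled guide RNA rests on 6 of the 18 libraries of the series, 3 at each dose, chosen by their labels. Naive CD8+ T cells had been isolated, given CRISPR ribonucleoprotein with a scrambled guide or with a Synthego guide kit against Nur77 (the nuclear receptor encoded by Nr4a1), activated with antibodies to CD3 and CD28, and kept overnight without LCA or with 1 of the 2 doses. The cells labelled WT are those with the scrambled guide, so they had gone through the same delivery as the edited cells. RNA was extracted with a Qiagen kit and sequenced from ultra-low-input cDNA libraries. Below, LCA10 and LCA50 are the scrambled-guide cells at each dose, and the scrambled-guide cells without LCA (3 libraries) and the Nur77-guide cells at both doses (3 and 3) are used for reference. The labels give no strain, sex or age, and do not say whether replicates were separate mice or cultures. The p-values therefore measure only the spread between these samples, which may be technical.

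LCA is a secondary bile acid that gut bacteria make from chenodeoxycholic acid. Type I and type II interferons signal through STAT proteins and induce a large, shared set of antiviral and antigen presentation genes, the interferon-stimulated genes, and activated T cells keep part of this set switched on. The integrated stress response is a separate programme, in which phosphorylation of eIF2 raises translation of the transcription factor ATF4, and ATF4 in turn induces genes that import and make amino acids and charge tRNAs.

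Total counts ran from 4988274 to 5170646 in LCA10 and from 4340061 to 4919966 in LCA50. Levels are CPM, counts scaled to library size, changes are log2 fold changes ± standard error of LCA50 against LCA10 with 3 libraries in each group, and a gene is called below an edgeR adjusted p of 0.05. The T cell receptor chain Cd3e (409 to 486 CPM), the coreceptor chain Cd8a (576 to 637 CPM) and the granzyme gene Gzmb (5370 to 6610 CPM) were high in all 6 libraries, Cd4 reached at most 1.29 CPM, and the neutrophil genes Camp and Cebpe were at 0 in all 6. Other neutrophil genes were detected at low level. Group means in LCA10 and LCA50 were 7.13 and 0.741 CPM for Mpo, 2.09 and 0.502 for Elane and 1.53 and 0.402 for Ngp. Ltf (0.0673 and 0.924 CPM) and Chil3 (0.196 and 0.645 CPM) went the other way. Summed marker levels ran from 161 to 190 CPM in LCA10 and 160 to 169 in LCA50 for 21 myeloid genes, 6.96 to 8.2 and 9.01 to 9.84 for 8 B cell genes, 5.08 to 14.5 and 13.1 to 49.6 for 12 red cell and platelet genes, and 363 to 397 and 279 to 323 for 7 natural killer and gamma delta T cell genes, the last mostly Klrk1 and Eomes. The 6 CD8 T cell genes, Gzmb included, summed to 8460 to 9420 CPM in LCA10 and 7730 to 8410 in LCA50, and 5 CD4 T cell genes, mostly Ctla4, to 203 to 208 and 159 to 192, both without overlap. Group means of Cd3g (572 and 463 CPM), Cd3d (514 and 439) and Cd8b1 (632 and 507) were lower in LCA50. Counts from 1470 olfactory, vomeronasal and trace amine receptor genes, which serve here as a measure of background, made up 89.6, 70.6 and 81.2 CPM in LCA10 and 121, 139 and 223 CPM in LCA50. This background was 2-fold higher in LCA50 with no overlap (exact two-sided permutation p = 0.1, the smallest that 3 against 3 libraries allow), and LCA50 replicate 3 was the highest. Library background and dose therefore moved together in scrambled-guide cells, and many results below are also given with that background as a covariate. In Nur77-guide cells the background was 75.2, 85 and 64.8 CPM at 10 µM and 164, 47.2 and 93.4 CPM at 50 µM, with overlap. The part of these marker levels in the results was not tested. In bulk RNA, fewer cells of a type and less RNA per cell cannot be told apart.

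Nr4a1 (chromosome 15, 101253902 to 101274795, GRCm38.p6) stood at 8.31, 16.5 and 8.4 CPM in LCA10 and 18, 14.9 and 7.9 CPM in LCA50. The ranges overlapped, and the change was 0.30 ± 0.32 (edgeR adjusted p = 0.698). In Nur77-guide cells its transcript ran from 9.08 to 10.7 CPM at 10 µM and from 7.07 to 15.7 CPM at 50 µM, and gene counts do not show whether the sequence was edited.

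Between LCA10 and LCA50, 264 of 11651 tested genes were called (2.27% of tested genes), 93 higher (0.798%) and 171 lower (1.47%). The groups did not overlap in 261 of the 264, where over all tested genes 10.5% lay higher and 11.2% lower without overlap. Lack of overlap in a called gene below is therefore a description and no further support for the call. Most changes were small, with a median of 1.42-fold among the calls, and 11 genes rose (0.0944%) and 20 fell (0.172%) by 2-fold or more. Those 20 were the interferon-linked genes Ifit1bl1, Mx1, Mx2, Usp18, Cmpk2, Oasl1, Ifit2, Ifi27l2a, Irf7, Ifih1, Rtp4, Ifi44, Ifi208, Ifi213, Phf11a and Phf11b, and Susd1, Art2b, Lair1 and Acp5. The 11 that rose were Pogk, Otub2, Ahr, Slc7a3, B4galnt4, Gpt2, Mycn, Tox, Dst, Tpbgl and Uaca, which hold an amino acid transporter (Slc7a3), an alanine transaminase (Gpt2) and several transcription factors. The largest fitted rise belonged to Uaca, a gene of a coiled-coil protein, on 0, 3 and 0 counts in LCA10 against 10, 11 and 7 in LCA50. Single libraries moved the number of calls: it was 75 without LCA50 replicate 2, 87 without LCA50 replicate 3, 89 without LCA10 replicate 3 and 155 without LCA10 replicate 2, and 66 with receptor background as a covariate. Of the 264 genes, 55 were called whichever 1 of the 6 libraries was left out, 56 with the covariate, and 41 in both respects (30 lower and 11 higher).

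**Figure D1:**
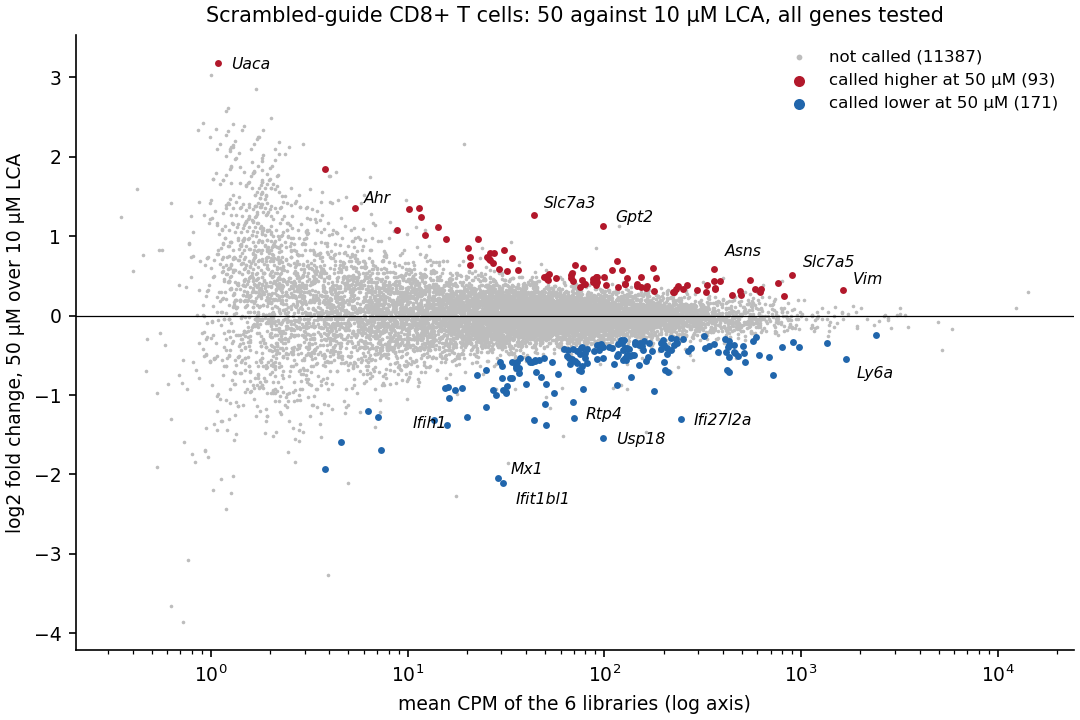
All 11651 tested genes by mean level over the 6 libraries (CPM on a log scale, horizontal axis) and log2 fold change of LCA50 against LCA10 (vertical axis), with called genes in colour. The 171 called lower and 93 called higher lie on both sides of 0, and the interferon genes take up much of the lower edge.

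Interferon-stimulated genes fell together, and made up 27 of the 171 genes that fell (15.8%). Of 41 members of the interferon list, all of them tested, 27 fell and 0 rose (by DESeq2 32 and 0, and at an unadjusted p under 0.05 39 and 0, where 8.41% of all tested genes were lower and 6.87% higher, 15.3% in all). Their median change was -0.77, beside 0.00 for all tested genes, and every member had a negative change (-2.27 to -0.11). In 37 members every LCA50 library lay below every LCA10 library. By comparison, 1.47% of all tested genes were called lower and 11.2% lay lower without overlap. The list's summed level was 11300, 13100 and 12300 CPM in LCA10 and 9640, 8620 and 8590 CPM in LCA50. In scrambled-guide cells without LCA it was 11400, 11900 and 11500 CPM, so LCA50 lay below both other groups. The list was called lower in 16 members without LCA10 replicate 2, 17 without LCA10 replicate 3, 12 without LCA50 replicate 2, 14 without LCA50 replicate 3 and 7 with the background covariate (median -0.54).

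The sensors and effectors of the response showed the pattern at different levels. Ifih1 (chromosome 2, 62595618 to 62646255), which encodes the double-stranded RNA sensor MDA5, stood at 30.5, 29.5 and 25 CPM in LCA10 and 12.4, 13.1 and 9.26 CPM in LCA50, a 2.43-fold fall (-1.28 ± 0.19, edgeR adjusted p = 0.000186). Rtp4, a gene of a receptor transport protein with antiviral activity (chromosome 16, 23520219 to 23614222), stood at 76, 127 and 78.9 CPM against 47.4, 45.2 and 40 CPM (-1.09 ± 0.16, edgeR adjusted p = 0.000286). The immunity-related GTPase Iigp1 stood at 490, 518 and 517 CPM in LCA10 and 391, 345 and 329 CPM in LCA50 (-0.52 ± 0.08, edgeR adjusted p = 0.000186). The groups did not overlap in any of the 3, and LCA10 replicate 2 was far above its group for Rtp4 but not for Ifih1 or Iigp1. Ifi203, a nuclear DNA-binding protein gene of the HIN-200 family, stood at 65.9, 82.1 and 71.9 CPM in LCA10 and 40.8, 31.9 and 40 CPM in LCA50 (-0.97 ± 0.14, edgeR adjusted p = 0.000186). Trim30a, a ubiquitin ligase gene of the TRIM family, stood at 160, 195 and 159 CPM against 105, 107 and 88.7 CPM (-0.77 ± 0.11, edgeR adjusted p = 0.000239). Both families hold near-identical neighbouring genes, so reads may have been split between copies.

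The classical antiviral effectors had the largest falls and the least even LCA10 libraries. Mx1, a GTPase gene that restricts RNA viruses, stood at 20.5, 89.2 and 30.3 CPM in LCA10 and 10.5, 11.7 and 11.5 CPM in LCA50 (-2.05 ± 0.45, edgeR adjusted p = 0.0325). Usp18, which removes the ubiquitin-like protein ISG15 and dampens receptor signalling, stood at 87.4, 235 and 119 CPM against 55.6, 53.4 and 41.8 CPM (-1.54 ± 0.33, edgeR adjusted p = 0.0323). LCA10 replicate 2 held the highest value in both, and in 22 of the 27 called members it was the highest of the 3 LCA10 libraries (in 33% of all tested genes). Without LCA10 replicate 2 both genes were still called, with smaller changes of -1.18 for Mx1 and -1.04 for Usp18, whereas leaving out any LCA50 library ended both calls, and leaving out LCA10 replicate 3 ended that of Usp18. Isg15 itself stood at 34.8, 56.5 and 34.8 CPM against 23.8, 24.9 and 14.7 CPM (-0.98 ± 0.25, edgeR adjusted p = 0.0361), and leaving out any library but LCA10 replicate 1 ended its call. Rsad2, the viperin gene, stood at 10.4, 62.4 and 15.2 CPM against 4.72, 7.23 and 6.1 CPM and was not called (-2.27 ± 0.59, edgeR adjusted p = 0.0669), nor were Ifit3 (-1.86) and Ifit1 (-1.52). Ifit2 (-1.31 ± 0.25, edgeR adjusted p = 0.00718), Cmpk2, a nucleotide kinase gene (-1.38 ± 0.27), and Ifit1bl1 (-2.11 ± 0.36) fell, and each lost its call without LCA50 replicate 2 or LCA50 replicate 3. With the background covariate the 6 called genes of this paragraph were not called: Mx1 stood at an edgeR adjusted p of 0.269, Usp18 at 0.264, Isg15 at 0.302, Ifit2 at 0.0873, Cmpk2 at 0.195 and Ifit1bl1 at 0.0677.

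Transcription factors of the pathway fell by different amounts. Irf7, the factor that amplifies type I interferon, stood at 83.1, 118 and 95.7 CPM in LCA10 and 52.6, 39 and 29.8 CPM in LCA50 (-1.29 ± 0.28, edgeR adjusted p = 0.031). Stat2, a subunit of the complex that binds interferon-stimulated response elements, stood at 180, 222 and 186 CPM against 138, 148 and 125 CPM (-0.52 ± 0.09, edgeR adjusted p = 0.00143). Irf1 stood at 483, 527 and 538 CPM against 440, 374 and 385 CPM (-0.37 ± 0.07, edgeR adjusted p = 0.00158). None of the 3 overlapped between the groups. Irf7 lost its call without LCA10 replicate 2, LCA10 replicate 3, LCA50 replicate 2 or LCA50 replicate 3, and, like Irf1 (edgeR adjusted p = 0.0714), with the covariate (0.274). Ifih1, Rtp4, Ifi203, Trim30a, Iigp1, Stat2 and the surface antigen gene Ly6a were called in every fit with 1 library left out and also with the covariate. Of the interferon genes described so far, Rtp4, Isg15, Stat2, Irf1, Ly6a, Rsad2, Ifit3 and Ifit1 were chosen after their values were seen.

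**Figure D2:**
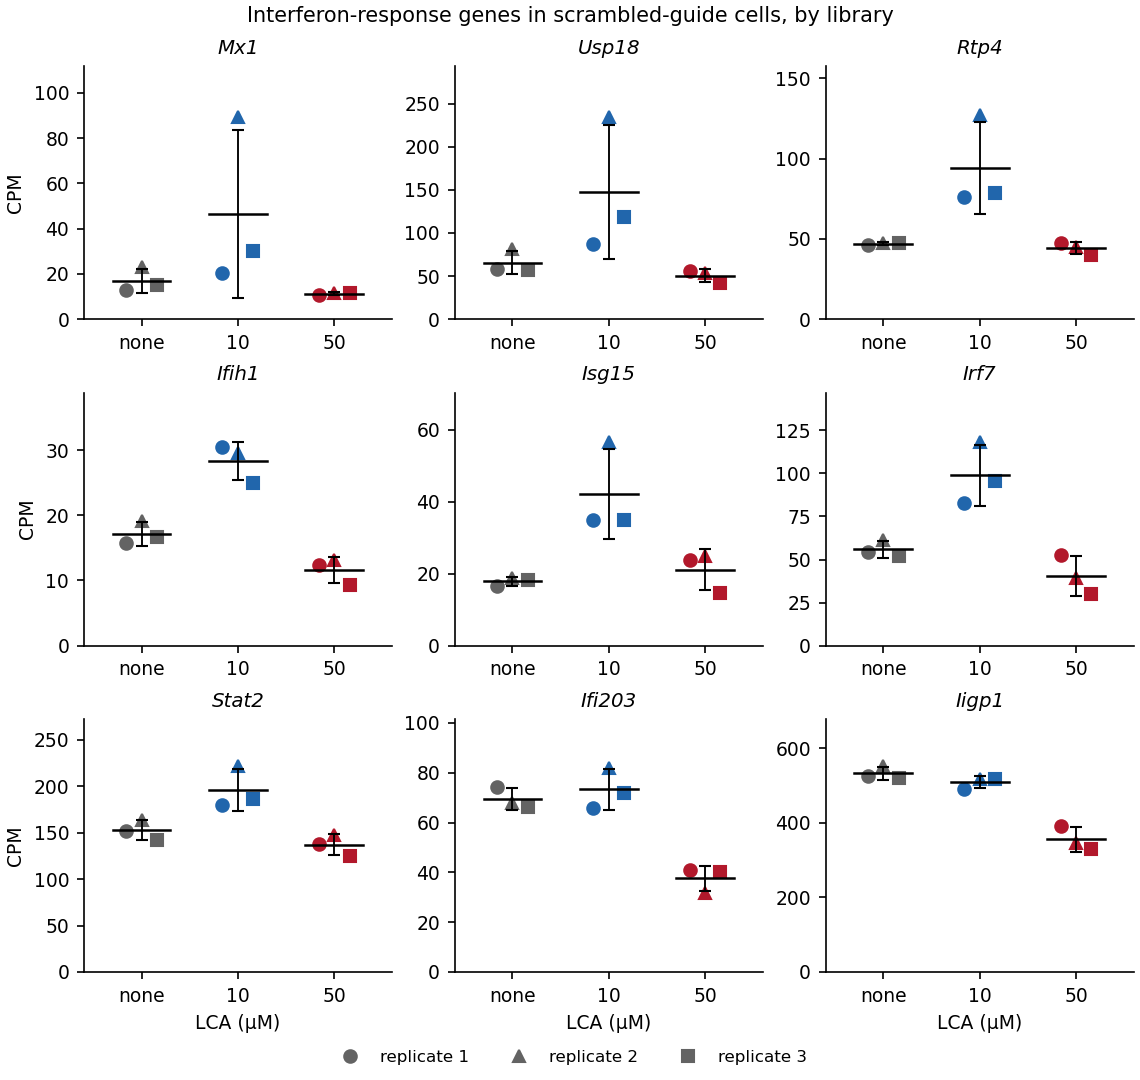
CPM of 9 interferon-stimulated genes in each library of scrambled-guide cells without LCA, at 10 µM and at 50 µM LCA; points are libraries, marked by replicate number, bars are means and error bars SD (n = 3), on linear axes from 0. LCA10 replicate 2 stands above the rest of its group for Mx1 (89.2 CPM) and Usp18 (235 CPM) but not for Ifih1 (29.5 CPM).

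The comparisons with cells without LCA use the same LCA10 and LCA50 libraries as the step above, so they are not independent of it. In them, 4 genes chosen after their values were seen stood as follows. Mx1 stood at 12.8, 23 and 15.2 CPM without LCA and Rtp4 at 46.3, 47.7 and 47.3 CPM, so every LCA10 library lay above the untreated ones for Rtp4, while for Mx1 LCA10 replicate 1 lay within their range. Rtp4 rose by 1.00 at 10 µM against no LCA (edgeR adjusted p = 0.00157) and stood at -0.09 at 50 µM, whereas Mx1 was called at neither dose (edgeR adjusted p = 0.284 and 0.524). Ifi203 stood at 74.3, 67.9 and 66.1 CPM without LCA, close to LCA10, with log2 differences of 0.08 at 10 µM (edgeR adjusted p = 0.97) and -0.89 at 50 µM (7.88e-05). Iigp1 stood at 525, 553 and 521 CPM without LCA, with log2 differences of -0.07 (edgeR adjusted p = 0.928) and -0.59 (3.19e-06). Over the 41 members, 4 rose at 10 µM against no LCA, with a median of 0.36, where 25 of all tested genes rose (0.215%). At 50 µM against no LCA 13 fell, with a median of -0.30, where 1000 of all tested genes were called (8.58%) and 574 fell (4.93%). The 45 calls at 10 µM (0.386%) became 4 without LCA10 replicate 2, all 4 of them lower, so neither Rtp4 nor any other interferon gene was called higher at 10 µM without that library.

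The HIN-200, PHF11, Schlafen and TRIM families, picked after the called genes were seen, held 17 genes that fell and are outside the interferon list. The family counts below also include list members described above, Ifi203 in the HIN-200 family and Trim30a in the TRIM family. Over all tested genes 1.47% were called lower and 8.41% were lower at an unadjusted p under 0.05. Of the HIN-200 family, 6 of 9 tested members fell and 0 rose (edgeR; 9 and 0 at an unadjusted p under 0.05, 6 and 0 by DESeq2), and 3 of the 6 calls were lost with the covariate. Ifi213 stood at 17.6, 26.4 and 24.4 CPM in LCA10 and 10.1, 9.24 and 6.77 CPM in LCA50 (-1.38 ± 0.25, edgeR adjusted p = 0.00129), and Ifi208 changed by -1.15 ± 0.19 (edgeR adjusted p = 0.000665). All 3 tested PHF11 genes fell, with Phf11b at 45.2, 74.7 and 84.2 CPM against 34.1, 32.5 and 27.5 CPM (-1.11 ± 0.18, edgeR adjusted p = 0.000925). With the covariate Phf11a (edgeR adjusted p = 0.171) and Phf11c (0.108) were not called, and Phf11a was not called without LCA10 replicate 2, LCA10 replicate 3, LCA50 replicate 2 or LCA50 replicate 3. Of the Schlafen genes, which include brakes on T cell division, 3 of 6 fell, with Slfn1 at 113, 185 and 152 CPM against 89.3, 82.2 and 73.8 CPM (-0.87 ± 0.15, edgeR adjusted p = 0.00175), and 2 of the 3 calls were lost with the covariate. In the TRIM family 7 of 38 fell and 1 rose, the median was -0.14, 15 members had a positive change, and 5 of the 8 calls were lost with the covariate. Ifi213 and Ifi208 lost their calls with the covariate (edgeR adjusted p = 0.113 and 0.0709), and Phf11b and Slfn1 were called with it and without any 1 library. Pml, the scaffold gene of nuclear bodies, stood at 251, 292 and 240 CPM in LCA10 and 162, 159 and 157 CPM in LCA50, with the 3 LCA50 libraries nearly level (-0.71 ± 0.10, edgeR adjusted p = 0.000176). Xaf1, a proapoptotic interferon-induced gene chosen after its values were seen, stood at 84.1, 126 and 95.1 CPM against 55.1, 61.1 and 43.6 CPM (-0.93 ± 0.14, edgeR adjusted p = 0.000186). Eif2ak2, the double-stranded RNA kinase PKR, is interferon-induced and also phosphorylates eIF2. It stood at 46, 53.1 and 55.7 CPM against 28.1, 29.5 and 27.5 CPM (-0.86 ± 0.14, edgeR adjusted p = 0.000375), and Pml, Xaf1 and Eif2ak2 were called with the covariate and without any 1 library.

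Promoter sequence was compared because so many interferon genes fell together. The interferon-stimulated response element was searched as GAAA, any 2 bases and GAAA again, on both strands, from 250 bases before to 50 bases after each RefSeq start site (GRCm38.p6), a motif chosen after the called genes were seen. It was held by 13 of 22 promoters of the called interferon genes (59.1%) and by 8 of 14 promoters (57.1%) of the interferon genes that were not called. Over all genes called lower it was held by 45 of 167 promoters (26.9%), over all called higher by 2 of 101 (1.98%) and over all 32851 promoters of the table by 3.44%. Read on the given strand only, 6 of the 22 held it. A match describes these letters and not a bound site. The matches that lay before the start of 4 called genes are shown, because they are the called members with the smallest p whose match could be printed, with the motif in capitals, 5′ to 3′ on the strand of the gene, from RefSeq GRCm38.p6. Ifi203 is from chr1:173942508-173942537, minus strand, with its match 35 bases before an annotated start. Trim30a is from chr7:104465194-104465443, minus strand (match 36 bases before the start), Stat2 from chr10:128270266-128270295, plus strand (222 bases) and Irgm1, another immunity-related GTPase gene, from chr11:48871428-48871457, minus strand, with 2 overlapping matches 24 and 30 bases before the start. Irgm1 was not called with the covariate (edgeR adjusted p = 0.108). Where an annotated exon or another gene lies in the window, 30 bases around the match are given.
Ifi203: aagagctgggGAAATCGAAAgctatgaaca
Stat2: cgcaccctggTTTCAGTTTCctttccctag
Irgm1: gtttcaaGAAATAGAAACCGAAActgattc
Trim30a: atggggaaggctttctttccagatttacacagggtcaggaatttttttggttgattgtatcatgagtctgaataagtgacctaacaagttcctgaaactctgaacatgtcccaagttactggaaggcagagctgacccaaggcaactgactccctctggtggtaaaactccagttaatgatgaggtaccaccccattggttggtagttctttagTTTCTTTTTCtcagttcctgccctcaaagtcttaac

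Genes of amino acid supply and of the stress response were among those that rose, 17 of the 93. For the counts within lists that follow, 0.798% of all tested genes rose and 1.47% fell. Of 119 tested genes in 5 lists (the integrated stress response, amino acid transporters, synthesis of serine, asparagine, proline and one-carbon units, transsulfuration and glutathione, and cytosolic tRNA synthetases), 17 rose and 2 fell, with a median of 0.18 beside 0.00 for all tested genes. Those that fell were Eif2ak2, described above, and the glutathione peroxidase Gpx4, at 40.4, 47.8 and 41.6 CPM in LCA10 and 35.4, 25.9 and 25.3 CPM in LCA50 (-0.58 ± 0.15, edgeR adjusted p = 0.0237; 0.226 with the covariate). Of the 19 calls, 14 were lost without LCA50 replicate 2, 12 without LCA10 replicate 3, 11 without LCA50 replicate 3, 8 without LCA10 replicate 2, and 13 with the covariate. Atf4, the transcription factor itself, stood at 302, 355 and 327 CPM in LCA10 and 404, 470 and 452 CPM in LCA50 (0.43 ± 0.10, edgeR adjusted p = 0.023). The groups did not overlap, but the call was lost with the covariate (0.26, edgeR adjusted p = 0.352) and without LCA10 replicate 1, LCA10 replicate 3, LCA50 replicate 2 or LCA50 replicate 3.

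Several importers rose. Slc7a5, the light chain of the exchanger LAT1 for large neutral amino acids (chromosome 8, 121881146 to 121907686), stood at 751, 771 and 705 CPM in LCA10 and 937, 1140 and 1100 CPM in LCA50 (0.51 ± 0.07, edgeR adjusted p = 3.93e-05). Its heavy chain partner Slc3a2 stood at 463, 502 and 431 CPM against 614, 658 and 642 CPM (0.45 ± 0.07, edgeR adjusted p = 0.000375). The pair rose to a like degree, every LCA50 library lay above every LCA10 library, and both calls held with any library left out and with the covariate (edgeR adjusted p = 0.000488 for Slc7a5 and 0.00911 for Slc3a2). The cationic amino acid transporters Slc7a3 and Slc7a1 rose too. Slc7a3 stood at 29.4, 27.4 and 20.1 CPM against 48.1, 77.7 and 59.4 CPM (1.27 ± 0.30, edgeR adjusted p = 0.0384), and Slc7a1, a far more abundant transcript, at 144, 137 and 120 CPM against 156, 185 and 175 CPM (0.36 ± 0.09, edgeR adjusted p = 0.0325). Neither overlapped between the groups, and neither was called with the covariate (edgeR adjusted p = 0.162 and 0.415) or without any single one of LCA10 replicate 2, LCA10 replicate 3, LCA50 replicate 2 and LCA50 replicate 3, nor, for Slc7a3, without LCA10 replicate 1. In all, 4 of 24 tested transporters rose and 0 fell (edgeR, with 11 and 0 at an unadjusted p under 0.05 and 4 and 0 by DESeq2), and 23 of the 24 had a positive change. Over all tested genes 0.798% rose, and 6.87% were higher at an unadjusted p under 0.05.

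Enzymes that make or use amino acids rose in 6 of 22 cases, with 0 falling (edgeR, with 10 and 1 at an unadjusted p under 0.05 and 6 and 0 by DESeq2). The shares of all tested genes were 0.798% called higher, and 6.87% higher and 8.41% lower at an unadjusted p under 0.05. Asns, asparagine synthetase (chromosome 6, 7675165 to 7693209), stood at 285, 309 and 274 CPM in LCA10 and 394, 470 and 442 CPM in LCA50 (0.59 ± 0.09, edgeR adjusted p = 0.000406), a 1.51-fold rise. Shmt2, the mitochondrial serine hydroxymethyltransferase that feeds one-carbon units, stood at 667, 674 and 621 CPM against 867, 910 and 833 CPM (0.41 ± 0.07, edgeR adjusted p = 0.000569). Both held their calls without any 1 library and with the covariate (edgeR adjusted p = 0.0197 for Asns and 0.00666 for Shmt2), and neither overlapped. Gpt2, which makes alanine in mitochondria, stood at 60.9, 59.3 and 65.6 CPM against 109, 153 and 144 CPM (1.13 ± 0.23, edgeR adjusted p = 0.0209). Its call held with the covariate (0.64, edgeR adjusted p = 0.0193) but was lost on leaving out any library other than LCA50 replicate 1. Pck2, the mitochondrial phosphoenolpyruvate carboxykinase, stood at 94.7, 90.8 and 79.7 CPM against 109, 168 and 151 CPM (0.69 ± 0.13, edgeR adjusted p = 0.00297) and lost its call without LCA50 replicate 2 or with the covariate (edgeR adjusted p = 0.109). Aldh18a1, the first enzyme of proline synthesis, stood at 319, 314 and 286 CPM against 386, 436 and 427 CPM (0.44 ± 0.09, edgeR adjusted p = 0.0036), and was not called with the covariate (0.193), without LCA10 replicate 3 or without LCA50 replicate 2.

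Stress response genes downstream of ATF4 split between called and uncalled. Chac1, which degrades glutathione, stood at 19.5, 14.7 and 12.3 CPM in LCA10 and 20, 37.6 and 33 CPM in LCA50 (0.96 ± 0.21, edgeR adjusted p = 0.00871). Stc2, a secreted glycoprotein gene, stood at 18.6, 20.8 and 20.5 CPM against 27.9, 35.6 and 33.9 CPM (0.70 ± 0.16, edgeR adjusted p = 0.0109). LCA50 replicate 1 was the lowest of its group in both and almost level with LCA10 replicate 1 for Chac1. Gclm, a subunit of the glutathione-forming ligase, rose by 0.49 ± 0.11 (edgeR adjusted p = 0.0114), and the tRNA synthetases Cars (0.37 ± 0.08), Iars (0.38 ± 0.09) and Yars (0.32 ± 0.07) rose. These were 3 of 20 synthetases, with 0 falling (edgeR, with 13 and 0 at an unadjusted p under 0.05 and 6 and 0 by DESeq2). Of all tested genes 0.798% rose, and 6.87% were higher at an unadjusted p under 0.05. None of Chac1, Stc2, Gclm, Cars, Iars and Yars was called with the covariate (edgeR adjusted p = 0.215, 0.153, 0.189, 0.0953, 0.42 and 0.174), without LCA50 replicate 2 or without LCA50 replicate 3. Other ATF4 targets, chosen after their values were seen, had positive changes but did not pass: Trib3 stood at 1.12 ± 0.38 (edgeR adjusted p = 0.165), Slc7a11 at 1.1 ± 0.48 (0.255), Ddit3 at 0.51 ± 0.35 (0.527), Nupr1 at 1.07 ± 0.33 (0.0918), Phgdh at 0.15 ± 0.09 (0.433) and Psat1 at 0.18 ± 0.07 (0.174).

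**Figure D3:**
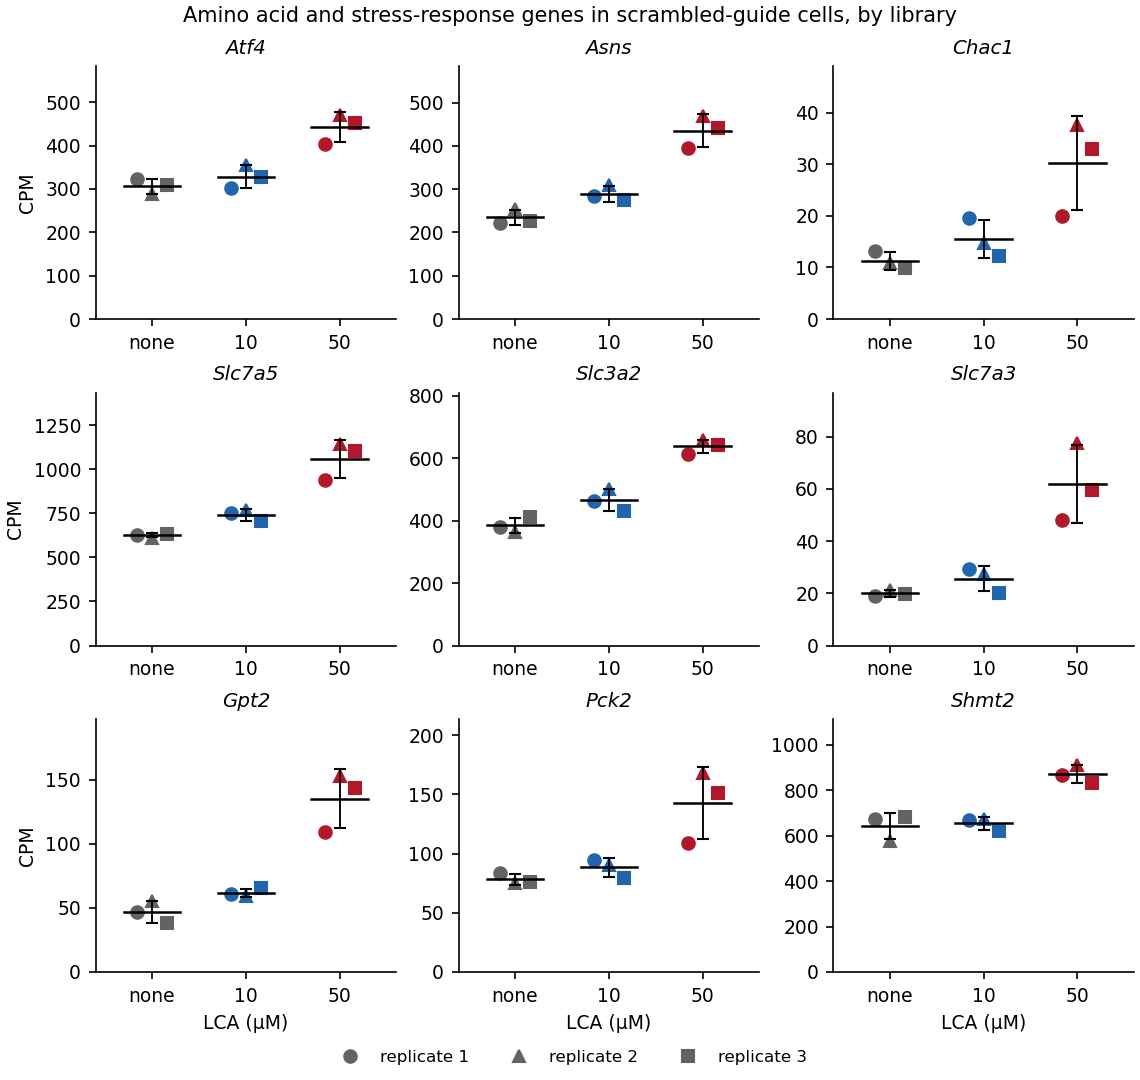
CPM of Atf4 and of 8 amino acid and stress response genes in each scrambled-guide library without LCA, at 10 µM and at 50 µM; points are libraries marked by replicate number, bars means and error bars SD (n = 3), on linear axes from 0. Slc7a5 runs from 705 to 771 CPM at 10 µM and from 937 to 1140 CPM at 50 µM, without overlap.

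For these genes too, the comparisons with cells without LCA use the same LCA10 and LCA50 libraries as the step above. Asns stood at 223, 254 and 227 CPM without LCA. Its log2 differences were 0.30 at 10 µM, which was not called (edgeR adjusted p = 0.233), and 0.89 at 50 µM (1.55e-07). Slc7a5 stood at 628, 612 and 634 CPM without LCA with log2 differences of 0.25, not called (edgeR adjusted p = 0.0904), and 0.76 (7.64e-10). For both, the 3 groups lay in order of dose with no overlap between neighbours. Shmt2, in contrast, stood at 671, 576 and 680 CPM without LCA, overlapping LCA10.

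The composite element bound by ATF4 with C/EBP proteins was searched as TGATGNAA on both strands in the same windows. It was held by 5 of 15 promoters of the 17 amino acid genes that rose (33.3%), those of Asns, Chac1, Iars, Yars and Pck2, and by 2 of them on the given strand only. Uncalled members of the 5 lists were not counted, so the 33.3% cannot be tied to having risen. Over all genes called higher the element was held by 6.93% of promoters, and over all called lower by 9 of 167 (5.39%). It was in 2.3% of the promoters of all tested genes and in 3.97% of all promoters of the table. Asns and Pck2 are shown as the called members with the smallest p that held it, with the motif in capitals. Asns is from chr6:7693214-7693243, minus strand, match 23 bases before the start, cut to 30 bases around it, and Pck2 from chr14:55540016-55540265, plus strand, match 103 bases before the start, on the opposite strand.
Asns: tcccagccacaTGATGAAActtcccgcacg
Pck2: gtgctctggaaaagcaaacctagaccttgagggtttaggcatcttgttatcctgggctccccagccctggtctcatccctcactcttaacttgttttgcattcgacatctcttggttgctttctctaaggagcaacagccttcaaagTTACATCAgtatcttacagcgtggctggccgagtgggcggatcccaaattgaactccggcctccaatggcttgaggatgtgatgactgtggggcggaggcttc

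Other genes that rose include transcription factors at low level. Ahr, the aryl hydrocarbon receptor, stood at 5.41, 7.47 and 4.49 CPM in LCA10 and 11.2, 18.7 and 14 CPM in LCA50 (1.34 ± 0.27, edgeR adjusted p = 0.0036), and it was called with the covariate (1.33, edgeR adjusted p = 0.0467) but not without LCA10 replicate 3 or LCA50 replicate 2. Mycn, a MYC family factor, stood at 7.93, 9.89 and 9.18 CPM against 14.2, 23.5 and 20.5 CPM (1.11 ± 0.27, edgeR adjusted p = 0.021). Tox, a factor of T cell exhaustion, stood at 6.96, 5.45 and 4.69 CPM against 12.4, 10.6 and 12.9 CPM (1.07 ± 0.29, edgeR adjusted p = 0.0396). All 3 were at low levels, without overlap between the groups, which the rule for naming the genes of highest fold required. Ikzf4, an Ikaros family factor, rose from 24, 19.4 and 23.4 CPM to 33.9, 41.2 and 44 CPM (0.83 ± 0.20, edgeR adjusted p = 0.021), and Nfil3, a basic leucine zipper factor, by 0.47 ± 0.09 (edgeR adjusted p = 0.00284). Mycn, Tox and Ikzf4 were not called with the covariate (edgeR adjusted p = 0.257, 0.189 and 0.544) or without any single one of LCA10 replicate 2, LCA10 replicate 3, LCA50 replicate 2 and LCA50 replicate 3. Nfil3 was called with it (0.0414), but not without LCA10 replicate 3 or LCA50 replicate 2.

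Among the genes called higher whichever library was left out were the glycosyltransferase B4galnt4, the exchange factor Ralgps2 and the intermediate filament gene Vim. B4galnt4 stood at 8.7, 6.26 and 5.86 CPM in LCA10 and 17.6, 14.7 and 16.9 CPM in LCA50 (1.24 ± 0.24, edgeR adjusted p = 0.00236), and Ralgps2 at 13.9, 16.3 and 13.1 CPM against 28.3, 23.1 and 26.9 CPM (0.85 ± 0.17, edgeR adjusted p = 0.0037). Vim stood at 1430, 1510 and 1410 CPM against 1740, 1860 and 1860 CPM, a small but even rise (0.32 ± 0.06, edgeR adjusted p = 0.00223). With the covariate B4galnt4 (edgeR adjusted p = 0.0191) and Vim (0.0263) were called and Ralgps2 was not (0.0702). Zdhhc8, a palmitoyltransferase gene chosen after its values were seen, stood at 57, 54.1 and 55.3 CPM against 87.5, 88.6 and 81.3 CPM (0.63 ± 0.11, edgeR adjusted p = 0.000874; 0.0053 with the covariate). Ribosome biogenesis genes, a list drawn up after the called genes were seen, rose in 5 of 43 cases (Rrp12, Mdn1, Ccdc86, Noc2l and Nat10, 0.26 to 0.53), where 0.798% of all tested genes rose. All 5 calls were lost without LCA10 replicate 3, LCA50 replicate 2 or LCA50 replicate 3 and with the covariate. Bcl2, the survival gene, stood at 534, 528 and 484 CPM against 573, 707 and 661 CPM (0.33 ± 0.08, edgeR adjusted p = 0.0273; 0.422 with the covariate).

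Genes of T cell identity and restraint fell in part. Of 19 inhibitory receptor genes, 5 fell and 0 rose by edgeR (DESeq2 called 6 lower and 1 higher, and 7 were lower and 2 higher at an unadjusted p under 0.05). Over all tested genes 1.47% fell and 0.798% rose, and 8.41% were lower and 6.87% higher at an unadjusted p under 0.05. Lair1, a collagen receptor, stood at 24.2, 21.4 and 20.1 CPM in LCA10 and 12.7, 10 and 9.26 CPM in LCA50 (-1.04 ± 0.23, edgeR adjusted p = 0.0103). Cd5, which dampens T cell receptor signals, stood at 68.6, 73.7 and 84.4 CPM against 59.2, 51.6 and 48.8 CPM (-0.51 ± 0.12, edgeR adjusted p = 0.0176). Ctla4 stood at 189, 186 and 193 CPM against 168, 145 and 133 CPM (-0.35 ± 0.09, edgeR adjusted p = 0.028), and Cd274, which encodes PD-L1 and is itself induced by interferon, at 43.3, 52.3 and 49.6 CPM against 29.2, 35 and 34.8 CPM (-0.55 ± 0.15, edgeR adjusted p = 0.0337). Entpd1, the ectonucleotidase CD39, was the fifth (-0.64 ± 0.17, edgeR adjusted p = 0.0361). None of the 5 overlapped between the groups, as was so for 261 of the 264 called genes. All 5 calls were lost without LCA50 replicate 2, 4 without LCA10 replicate 3, 4 without LCA50 replicate 3 and 4 with the covariate, where Cd274 was called (-0.79, edgeR adjusted p = 0.0163). Pdcd1 (-0.16 ± 0.18, edgeR adjusted p = 0.716), Lag3 (-0.21 ± 0.33) and Havcr2 (0.72 ± 0.21, edgeR adjusted p = 0.0558), chosen after their values were seen, were not called.

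Of 31 naive and memory genes, 4 fell and 2 rose (Bcl2 and Igfbp4), with a median of -0.24, where 1.47% of all tested genes fell and 0.798% rose. Of these 6 calls 5 were lost with the covariate, 5 without LCA50 replicate 3, 4 without LCA10 replicate 3, 4 without LCA50 replicate 2 and 2 without LCA10 replicate 2. Igfbp4 was among those lost with the covariate (edgeR adjusted p = 0.252). Dapl1 stood at 29.4, 35.5 and 42 CPM against 22.7, 17.3 and 15.8 CPM (-0.94 ± 0.19, edgeR adjusted p = 0.0037), and was not called without LCA10 replicate 3, without LCA50 replicate 3 or with the covariate (0.113). The members that fell also included the ADP-ribosyltransferase Art2b, which has a close paralog (edgeR adjusted p = 0.123 with the covariate), and Usp18. Of 18 genes of MHC class I presentation 4 fell and 0 rose (edgeR; 12 and 0 at an unadjusted p under 0.05, 5 and 0 by DESeq2), where 8.41% of all tested genes were lower at an unadjusted p under 0.05. Of the 4 calls 2 were lost with the covariate, and 2 without each of LCA10 replicate 2, LCA10 replicate 3, LCA50 replicate 2 and LCA50 replicate 3. H2-T23, the Qa-1 gene, stood at 475, 537 and 591 CPM against 427, 376 and 353 CPM (-0.47 ± 0.08, edgeR adjusted p = 0.000925; 0.0414 with the covariate). This gene has close relatives that can share its reads. B2m, the light chain of all class I molecules, stood at 2550, 2630 and 2680 CPM against 2280, 2250 and 2080 CPM (-0.25 ± 0.06, edgeR adjusted p = 0.0129; 0.133 with the covariate). The GIMAP family of lymphocyte survival GTPases, a family chosen after the called genes were seen, fell in 3 of 8 cases, with Gimap3 at 368, 347 and 391 CPM against 301, 268 and 261 CPM (-0.41 ± 0.07, edgeR adjusted p = 0.000925; 0.0382 with the covariate). In that family 1 member was called with the covariate, and 1 without LCA10 replicate 3, LCA50 replicate 2 or LCA50 replicate 3. The coreceptor chain Cd8b1 stood at 605, 614 and 678 CPM against 564, 479 and 478 CPM (-0.32 ± 0.08, edgeR adjusted p = 0.0166; 0.269 with the covariate), while Cd8a stood between 576 and 637 CPM in all 6. Klrk1, the receptor NKG2D, which CD8 T cells share with natural killer cells, fell by 0.68 ± 0.16 on the log2 scale (edgeR adjusted p = 0.0325; 0.252 with the covariate).

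Few sterol genes and bile acid receptors were called. Of 27 tested genes of cholesterol synthesis, 2 fell and 0 rose (edgeR; 14 and 0 at an unadjusted p under 0.05, 4 and 0 by DESeq2), 24 had a negative change, and the median was -0.31. In 14 of them every LCA50 library lay below every LCA10 library, where over all tested genes 11.2% did so and 8.41% were lower at an unadjusted p under 0.05. With the background covariate the list had 0 members called and its median was -0.06. Msmo1, a demethylating oxidase of the pathway, stood at 133, 134 and 144 CPM in LCA10 and 92.9, 93.8 and 101 CPM in LCA50 (-0.51 ± 0.11, edgeR adjusted p = 0.00636). Insig1, the membrane protein that retains the SREBP complex, stood at 72.7, 70.4 and 75.4 CPM against 54.3, 37.6 and 39.1 CPM (-0.74 ± 0.19, edgeR adjusted p = 0.0396). Both were without overlap, and both calls were lost with the covariate (edgeR adjusted p = 0.226 and 0.449), without LCA10 replicate 3 and without LCA50 replicate 2. The sterol regulatory element TCACNCCAC, on either strand, was in 0 of the 2 promoters of these genes, too few to read anything from. It was in 1 of 24 promoters of the tested cholesterol synthesis genes (4.17%) and in 1.24% of all promoters. Of 33 listed bile acid, retinoid and related receptors and their targets, 16 passed the filter on low counts and edgeR called Ahr alone (DESeq2 called 3 higher, and 4 were higher at an unadjusted p under 0.05). Of all tested genes 0.798% rose, and 6.87% were higher at an unadjusted p under 0.05. The farnesoid X receptor gene Nr1h4 had 0 counts in all 6 libraries, and the bile acid receptor gene Gpbar1 had 2, 5 and 1 counts in LCA10 and 6, 9 and 3 in LCA50 and was not tested. The vitamin D receptor gene Vdr, whose protein LCA can bind, stood at 2.32, 2.22 and 2.15 CPM against 2.15, 1.61 and 1.81 CPM (-0.27 ± 0.55, edgeR adjusted p = 0.863), and its classical target Cyp24a1 had 0, 0 and 0 counts against 7, 5 and 10, too few to be tested. Nr1h4, Gpbar1, Vdr and Cyp24a1 were chosen after their values were seen.

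**Figure D4:**
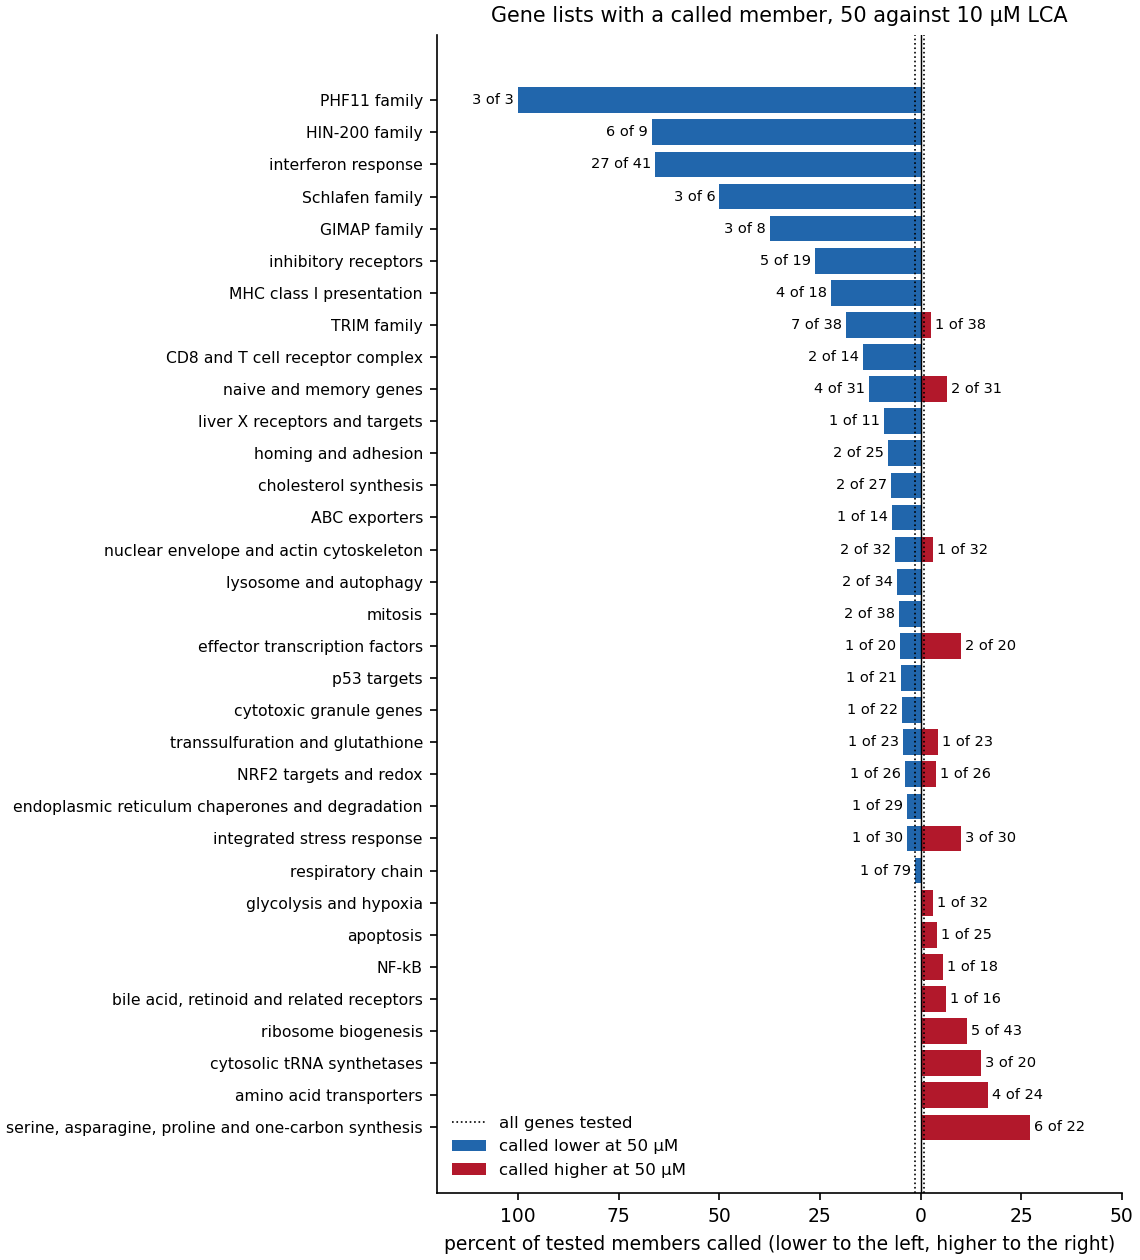
Percent of the tested members of each gene list called higher or lower in LCA50 against LCA10, for lists with at least 1 call. The interferon list has 27 of 41 members called lower, while the amino acid lists have most of their calls on the higher side.

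Several lists had 0 calls by edgeR in either direction, and at an unadjusted p under 0.05 6.87% of all tested genes were higher and 8.41% lower. T cell receptor-induced transcription factors had 0 of 23 (7 higher and 1 lower at an unadjusted p under 0.05, and 1 higher by DESeq2), with Myc at 0.16 ± 0.07 (edgeR adjusted p = 0.211) and Jund at 0.43 ± 0.14 (0.128). Effector cytokines had 0 of 17 (3 and 3 at an unadjusted p, 1 and 1 by DESeq2). Lta, the lymphotoxin gene, stood at 333, 365 and 296 CPM in LCA10 and 446, 443 and 441 CPM in LCA50 without overlap, but was not called (0.42 ± 0.13, edgeR adjusted p = 0.113). Costimulatory receptors had 0 of 16 (2 and 4 at an unadjusted p, 0 by DESeq2), with Tnfrsf9 (4-1BB) at 0.30 ± 0.09 (edgeR adjusted p = 0.0846). Fatty acid synthesis had 0 of 22 (0 higher and 6 lower at an unadjusted p, 0 by DESeq2), with Fasn at 0.19 ± 0.12 (edgeR adjusted p = 0.459). Heat shock genes and chaperonins had 0 of 25 (2 and 0 at an unadjusted p, 0 by DESeq2), cytosolic ribosomal proteins 0 of 81 (0 and 8, 0 by DESeq2) and DNA replication genes 0 of 42 (1 and 4, 1 lower by DESeq2). Fatty acid oxidation had 0 of 21 (1 and 2, 0 by DESeq2), mitochondrial ribosomal proteins 0 of 78 (0 and 11, 0 by DESeq2), MAPK feedback genes 0 of 14 (4 and 0, 0 by DESeq2) and cytokine signalling brakes and STAT5 targets 0 of 20 (3 and 1, 1 and 1 by DESeq2). The endoplasmic reticulum chaperone list, another arm of stress, had 0 higher and 1 lower of 29 (0 and 6 at an unadjusted p, 0 and 1 by DESeq2).

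The same dose step in Nur77-guide cells shares no library with the step described here, so its libraries are a separate set, from cells with another guide. There 161 genes were called (1.38%), 54 higher (0.463%) and 107 lower (0.918%), and 67 genes were called under both guides in the same direction (13 higher and 54 lower), which is 25.4% of the calls with the scrambled guide and 41.6% of those with the Nur77 guide. None was called in opposite directions. Of the 171 genes that fell with the scrambled guide, 163 (95.3%) had a negative change with the Nur77 guide, and of the 93 that rose, 77 (82.8%) a positive one, where 49.2% of all tested genes were negative. Their median changes were -0.37 and 0.19, smaller than the -0.53 and 0.47 with the scrambled guide, in which the genes were chosen. Across all tested genes the 2 steps correlated at r = 0.324, a description over genes that are not independent.

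Interferon genes fell with the Nur77 guide too. There 21 of the 41 fell, where 0.918% of all tested genes did. All 41 changes were negative with a median of -0.71, beside 0.00 for all tested genes. Of the 41, 16 were called under both guides, among the 54 genes called lower under both. Pml stood at 258, 266 and 287 CPM at 10 µM and 122, 166 and 181 CPM at 50 µM (-0.79 ± 0.10, edgeR adjusted p = 2.05e-05), and Ifi203 at 56.5, 53.4 and 40.5 CPM against 16.4, 27.9 and 24.3 CPM (-1.11 ± 0.16, edgeR adjusted p = 0.000102). Rtp4 stood at 80.2, 82.9 and 60.7 CPM against 29.8, 45.4 and 39.3 CPM (-0.96 ± 0.17, edgeR adjusted p = 0.00256). No gene of the 3 overlapped between the doses, and with this guide the background covariate left 23 members called. Receptor background itself overlapped between the doses under this guide. Leaving out Nur77-guide replicate 1 or 2 at 10 µM or replicate 1 at 50 µM left 13, 12 and 13, and a fit of the 6 Nur77-guide libraries alone left 10. Of the amino acid genes, Asns (0.49 ± 0.09, edgeR adjusted p = 0.00489), Slc3a2 (0.28 ± 0.07, edgeR adjusted p = 0.0395) and Atf4 (0.54 ± 0.10, edgeR adjusted p = 0.00672) rose with the Nur77 guide as well. Slc7a5 did not pass there (0.18 ± 0.07, edgeR adjusted p = 0.185), at 828, 859 and 878 CPM against 964, 1010 and 940 CPM, nor did Ahr (0.52 ± 0.27, edgeR adjusted p = 0.439).

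**Figure D5:**
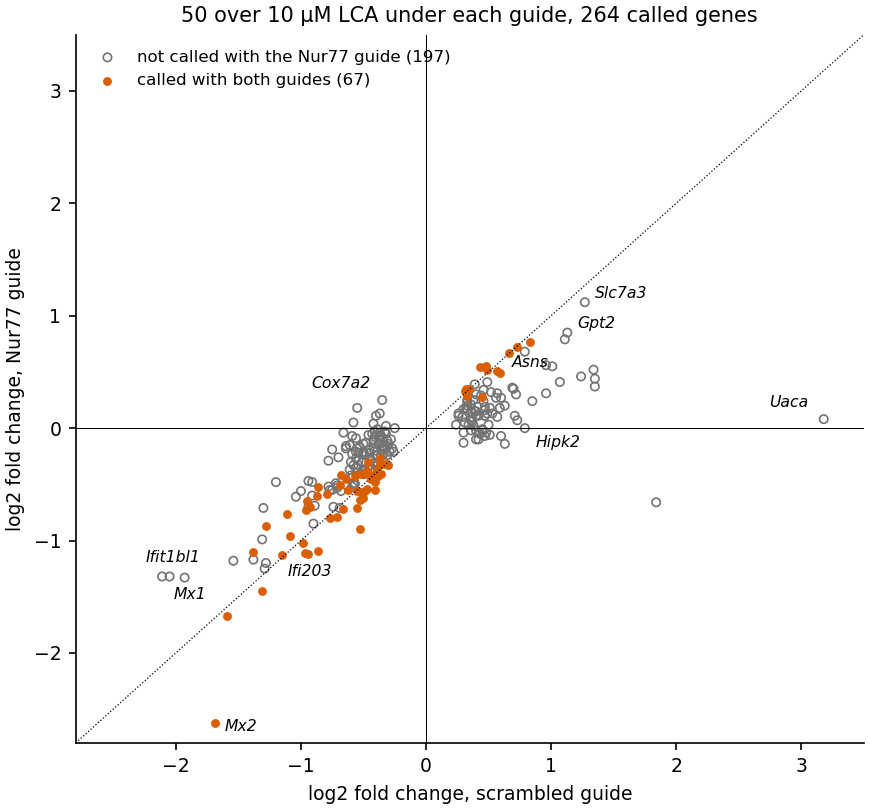
Log2 fold change of 50 against 10 µM LCA in scrambled-guide cells (horizontal axis) and in Nur77-guide cells (vertical axis) for the 264 genes called with the scrambled guide, coloured by whether they were also called with the Nur77 guide (67) or not (197). Most of the lower genes, 163 of 171, lie below 0 on both axes.

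The difference between the guides' steps was tested directly. edgeR called 0 genes (0% of tested genes; 819 or 7.03% at an unadjusted p under 0.05) and DESeq2 1, so a call with the scrambled guide and not with the Nur77 guide does not show that the steps differed. The smallest p belonged to Cox7a2, a subunit of cytochrome c oxidase, which stood at 201, 227 and 222 CPM in LCA10 and 177, 175 and 159 CPM in LCA50, and with the Nur77 guide at 186, 197 and 157 CPM against 196, 217 and 227 CPM (difference of -0.59 ± 0.12, edgeR adjusted p = 0.204). The scrambled-guide step of Cox7a2 was not called with the covariate (edgeR adjusted p = 0.255). Tysnd1, a peroxisomal protease gene, followed at 64, 62.2 and 59.4 CPM against 95.1, 93.4 and 93 CPM with the scrambled guide and 73.1, 74.3 and 69.2 CPM against 71, 77.6 and 57.9 CPM with the Nur77 guide (0.67 ± 0.16, edgeR adjusted p = 0.54). For Slc7a5 the difference was 0.33 ± 0.09 (edgeR adjusted p = 0.54), for Ahr 0.81 ± 0.38 (0.678), for Ifih1 -0.41 ± 0.26 (0.775) and for Pml 0.08 ± 0.14 (0.933).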

How the data were processed

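RNA-seq gene counts of 18 libraries were used as the authors deposited them: whole-number counts per gene symbol, not normalized. The submitters' processing notes name STAR, HOMER and DESeq2 and the builds GRCm38 and mm10, with no version or role. Trimming, counting rules and strand are not given in the sources used here. Of 24537 symbols, 2231 had no count in any library, 23675 matched RefSeq GRCm38.p6 by symbol and 753 more by a synonym.

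The main tests came from edgeR 4.0.16 (R 4.3.3), in 1 model of all 18 libraries with 6 group means (12 residual degrees of freedom). The filter filterByExpr, applied by group, kept 11651 genes, TMM set the library scaling, and each contrast was tested by robust quasi-likelihood with Benjamini-Hochberg adjustment, called below 0.05. The biological coefficient of variation was 0.0984 and the median standard error 0.155, so at 4340061 to 5170646 counts per library small changes of low genes could not be detected. Standard errors were derived from the fold change and its F statistic. The code was tested on simulated data.

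There were 44 gene lists, of which 6 hold cell type markers, and 6 more were added after the called genes were seen. The members and lists were chosen with earlier results of these data known. Named genes followed a rule: Nr4a1, then called genes with a mean of at least 5 CPM, no overlap between the 3 and 3 libraries and no predicted-gene symbol, the 15 highest and 15 lowest by fold. To these were added up to 4 called members of each list each way by p (or the 2 most abundant members where none was called) and the 5 smallest p-values of the guide difference and of the step in Nur77-guide cells. Genes outside it are said to be so, complete a count, or belong to a full list of called genes.

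Alternatives were DESeq2 1.42.0, DESeq2 size factors in edgeR, no filter, a mean of at least 5 CPM, a fit without the other groups, a block for replicate number, limma-voom (limma 3.58.1) with quality weights, receptor background as a covariate, glmTreat at a log2 threshold of 0.5, and each library left out. Chosen after seeing the data were leaving out the LCA50 library with the highest background under each guide together, leaving out Rn45s and Lars2, and the interferon motif. Promoter windows with an exon of GENCODE M21 or another RefSeq gene were cut to 30 bases. Some items are not reported here.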

Additional observations from a re-analysis of the deposited data

How the results depend on the processing

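The number of calls between LCA10 and LCA50, 264, was 448 without a filter on low counts, 485 in a fit of the compared groups alone, 714 with limma-voom and quality weights, 66 with the background covariate, 0 against a log2 fold change of 0.5, and between 75 and 363 with 1 library left out. DESeq2 called 354 (131 higher and 223 lower), and 270 were called without the LCA50 library of highest background under each guide. The interferon list had 7 members called lower with the covariate, 0 against a log2 fold change of 0.5, and 12 to 30 with 1 library left out. Of the 89 called genes named by the rule, 67 lost their call with the covariate, 66 without LCA50 replicate 2, 61 without LCA50 replicate 3, 58 without LCA10 replicate 3, 38 without LCA10 replicate 2, 22 without LCA10 replicate 1 and 8 without LCA50 replicate 1, and 0 of these genes changed sign with a call.

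The step in Nur77-guide cells, 161 calls, had 249 with DESeq2, 325 without a filter, 28 in a fit of the compared groups alone, 84 without the 2 libraries of highest background and 60 to 271 with 1 library left out. The difference between the guides had 1 with DESeq2, 2 without a filter and 0 to 5 with 1 library left out. LCA10 against no LCA, 45 calls, had 77 with DESeq2, 104 without a filter, 136 in a fit of the compared groups alone, 113 with limma-voom, 79 with the covariate, 113 without the 2 libraries and 4 to 57 with 1 left out. LCA50 against no LCA, 1000 calls, had 339 with the covariate and 522 to 1027 with 1 left out. On the given strand only, 6 promoters of called interferon genes and 2 of called amino acid genes held their motif. The cause of these differences was not tested.

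Replicate numbers did not pair the libraries: deviations of same-numbered libraries of the 2 groups correlated at -0.08 to 0.042. With the replicate block 252 genes were called (87 higher and 165 lower), 29 of them in the interferon list.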
